A study of Mus musculus with 2 samples.

Results

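The 9 complement genes C3, C4b, Cfb, Cfi, Cd59a, Cd46, Cd55, Serping1 and Clu were followed in single cells of the mouse retinal pigment epithelium (RPE), the pigmented monolayer behind the photoreceptors. They were taken by symbol from the 27998 genes listed, and all 9 were found. The cells came from 2 male C57BL/6J mice, R1 and R2, whose age is given as postnatal day 36 in the protocol and as 4 to 5 weeks in the sample annotation. RPE sheets were released from the eyecup with trypsin after the retina had been removed, the eyes of each mouse went into 1 pool, and viable cells were sorted with a calcein dye before droplet RNA sequencing. There was 1 condition, so that differences could be tested only between cells of the same mice. The dissociated cells hold no information on where in the eyecup they lay.

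Complement is a cascade of plasma proteins that tags surfaces for removal and can perforate membranes. It is started by antibody or by sugar patterns, or ticks over spontaneously through C3 and factor B, and host cells hold it in check with soluble and membrane-bound regulators. In the RPE, local complement activity is studied because complement regulation is tied to age-related macular degeneration. C3, C4b and Cfb encode components of the cascade. Cfi (a protease that cleaves C3b and C4b), Serping1 (the C1 inhibitor) and Clu (clusterin, a secreted chaperone that also binds the terminal complex) act in the fluid phase. Cd46 and Cd55 act on membrane-bound C3b and C4b and on the convertases, and Cd59a blocks the last step of pore assembly.

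Each captured transcript carried a unique molecular identifier (UMI), and a level is given as UMIs per 10000 UMIs of a cell, or, summed over cells, as CPM (UMIs per 1000000 summed UMIs). The UMIs mark 3′ ends, so levels were not scaled to transcript length. After filters on genes, mitochondrial UMIs and doublets, 2671 of 2844 cells were kept in R1 and 2847 of 2994 in R2. Transthyretin (Ttr), an abundant RPE transcript, divided these cells without overlap. In R1, 2615 cells had at least 5% Ttr UMIs (high-Ttr cells) and 56 cells had less than 3% (low-Ttr cells). In R2 there were 2829 high-Ttr and 18 low-Ttr cells, and no kept cell of either mouse lay between these limits. High-Ttr cells held a median of 8633 UMIs in R1 and 7785 in R2, and low-Ttr cells 3202.5 and 3906. Of 8 RPE marker genes, 7 were plainly present in high-Ttr cells, with a median sum of 414 UMIs per 10000 in R1 and 477 in R2, while Best1, a chloride channel gene of the RPE, had a UMI in 0.268% and 0.283% of these cells. In low-Ttr cells the median sum was 34.9 and 24.7, and Best1 was at 0. At least 3 of 8 genes of a list led by Pax6 and Dkk3 were found in 44 of 56 low-Ttr cells of R1 and 12 of 18 of R2. The genes of this list were known from earlier results of these data to be high in low-Ttr pigment cells, so these counts are not independent evidence. Another 2 low-Ttr cells of R1 carried at least 3 microglia markers, and 2 in each mouse carried at least 3 fibroblast markers. R1 and R2 shared 12 cell barcodes, none of them in low-Ttr cells.

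The 9 genes lie on 5 chromosomes of GRCm38, and the 3 components are all on chromosome 17: C3 at chr17:57203970-57228136, C4b at chr17:34728380-34743882 and Cfb at chr17:34856374-34862518, all on the minus strand. Cfi lies at chr3:129835884-129875332 on the plus strand, Serping1 at chr2:84765387-84775444 on the minus strand and Clu at chr14:65968483-65981547 on the plus strand. Cd59a lies at chr2:104095801-104115354 on the plus strand, Cd46 at chr1:195036826-195092249 and Cd55 at chr1:130439027-130462744, both on the minus strand. All 9 are annotated as protein coding. C4b has a near-identical neighbour, C4a, which is not analysed here, and Cd59a has a close paralogue, Cd59b, so that reads of these genes can be hard to assign.

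Upstream sequence was at hand for 4 of the 9 genes, and the 250 bases before the annotated start are shown. Of these 4 genes, Cd59a and Cd46 were detected in high-Ttr cells of both mice, whereas C3 and Cd55 were at 0 there. Cd46 was sparse, at 0.947 CPM in R1 and 0.905 in R2, and Clu, the most abundant member, is not among the 4. The sequences are from RefSeq (GRCm38.p6), 5′ to 3′ on the strand of the gene. The window of C3 is chr17:57228137-57228386, that of Cd55 chr1:130462745-130462994, that of Cd59a chr2:104095551-104095800 and that of Cd46 chr1:195092249-195092498. Capitals mark matches on either strand, which may overlap, to TATAAA as the core promoter element, CCAAT as the site of NF-Y, GGGCGG as the GC box, CACGTG as the palindromic E-box and TGANTCA as the AP-1 element.
C3: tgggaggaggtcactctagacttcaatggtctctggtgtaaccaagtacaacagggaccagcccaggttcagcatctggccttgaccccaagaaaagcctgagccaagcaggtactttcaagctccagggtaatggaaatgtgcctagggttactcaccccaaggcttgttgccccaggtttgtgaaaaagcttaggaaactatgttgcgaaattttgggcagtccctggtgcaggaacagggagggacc
Cd55: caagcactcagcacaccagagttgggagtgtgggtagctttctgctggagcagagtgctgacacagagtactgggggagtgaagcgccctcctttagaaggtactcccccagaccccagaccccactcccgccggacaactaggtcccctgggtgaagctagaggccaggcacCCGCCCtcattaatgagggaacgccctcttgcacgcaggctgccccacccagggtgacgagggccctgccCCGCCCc
Cd59a: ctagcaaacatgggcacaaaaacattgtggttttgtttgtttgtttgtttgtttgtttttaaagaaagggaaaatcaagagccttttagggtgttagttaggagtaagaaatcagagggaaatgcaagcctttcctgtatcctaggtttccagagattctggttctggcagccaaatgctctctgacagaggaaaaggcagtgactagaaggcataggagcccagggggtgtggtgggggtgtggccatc
Cd46: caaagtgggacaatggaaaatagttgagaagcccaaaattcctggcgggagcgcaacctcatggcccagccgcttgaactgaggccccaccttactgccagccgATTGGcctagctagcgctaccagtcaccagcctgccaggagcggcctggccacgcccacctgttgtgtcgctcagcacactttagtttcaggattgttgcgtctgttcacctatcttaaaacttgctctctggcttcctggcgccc
Cd55 held 2 GC boxes, and Cd46 held 1 CCAAT match. Of 32851 such windows, 32.7% held at least 1 GC box and 33.9% at least 1 CCAAT match. The windows of C3 and Cd59a held none of the 5 patterns, and none of the 4 windows held TATAAA (12.4% of all windows), CACGTG (6.02%) or TGANTCA (6.75%). A match is a run of letters and says nothing of binding.

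Clu stood far above the other 8 genes in high-Ttr cells (plot of levels by mouse and cell class). Every high-Ttr cell of both mice held Clu UMIs, and its mean level was 83.1 ± 29.5 UMIs per 10000 (SD over 2615 cells) in R1 and 82.6 ± 22.8 (SD over 2829 cells) in R2. By this level it ranked 11 in R1 and 12 in R2 among all genes listed. Cd59a followed with 0.244 UMIs per 10000 in R1 and 0.307 in R2. No other member reached 1 CPM in the high-Ttr cells of either mouse.

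**Figure D1:**
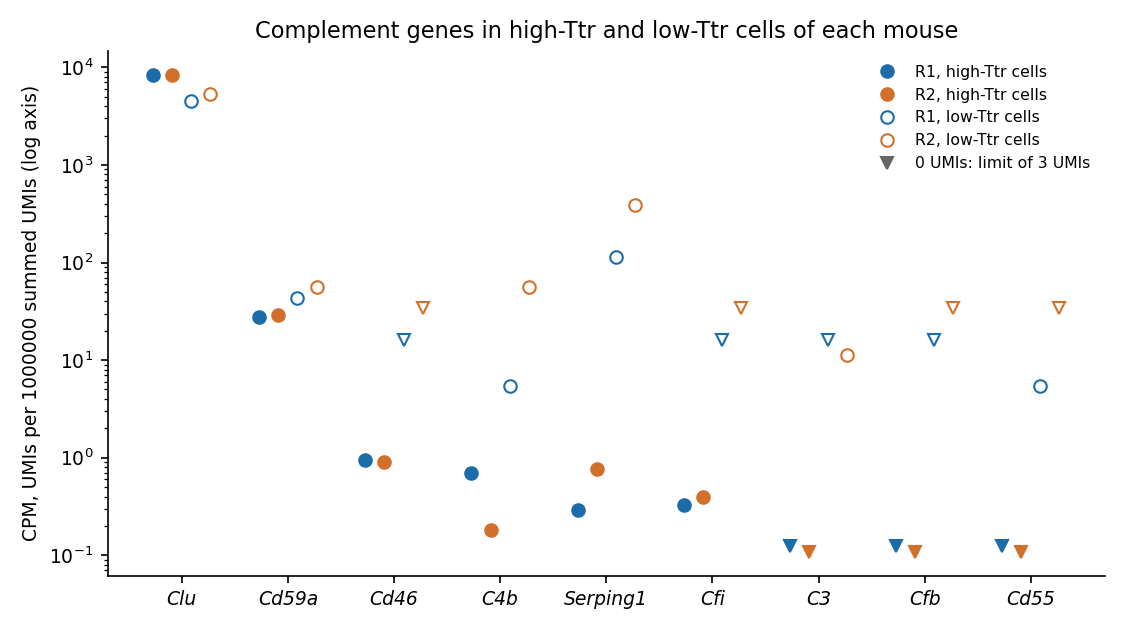
CPM (UMIs per 1000000 summed UMIs, log axis) of the 9 complement genes in high-Ttr cells (filled) and low-Ttr cells (open) of R1 (blue) and R2 (orange), with triangles at the limit that 3 UMIs set where a gene had 0 UMIs. Clu lies between 4530 and 8424 CPM in all 4 sums, Cd59a between 27.5 and 56.7, and Serping1 is the member with the widest gap between the cell classes.

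The components of the cascade were at or near 0 in high-Ttr cells. C3, on which all routes of activation converge, had 0 UMIs among 24291423 in R1 and among 27633731 in R2. Taking 3 counts as the limit that such a 0 allows, this is at most 0.124 CPM in R1 and 0.109 in R2, or 0.115% and 0.106% of cells with a C3 UMI, which sets no limit on the cells that express it. Cfb, the protease subunit of the alternative pathway convertase, was likewise at 0 in high-Ttr cells of both mice. C4b, used by the classical and lectin pathways, had 17 UMIs in 17 cells of R1 and 5 UMIs in 4 cells of R2. That is 0.650% of cells in R1 (exact Clopper-Pearson 95% interval 0.379 to 1.04%) and 0.141% in R2 (0.0385 to 0.362%), so the intervals of the mice did not overlap. Intervals and limits cover counting error only.

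Among the fluid-phase regulators, Clu was the only abundant one. Cfi had 8 UMIs in 6 high-Ttr cells of R1 and 11 UMIs in 8 cells of R2. Serping1 had 7 UMIs in 5 cells and 21 UMIs in 15 cells. The order of the 4 sparse genes was not the same in the mice. In R1 it ran from Cd46 (0.947 CPM) over C4b (0.700) and Cfi (0.329) to Serping1 (0.288), and in R2 from Cd46 (0.905) over Serping1 (0.760) and Cfi (0.398) to C4b (0.181). Shares of cells this low cannot be told apart from free RNA in the droplets.

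The membrane regulators were uneven. Cd59a was found in 16.3% of high-Ttr cells in R1 (14.9 to 17.8%) and in 16.7% in R2 (15.4 to 18.1%), with 667 and 807 UMIs and at most 6 in a cell. Cd46 had 23 UMIs in 20 cells of R1 and 25 UMIs in 18 cells of R2, and Cd55 had none in the high-Ttr cells of either mouse. The paralogue Cd59b, with 117 UMIs in R1 and 123 in R2, lay below Cd59a in both mice.

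The share of cells with a Cd59a UMI was larger in more deeply sequenced cells. It was 5.85% in the shallowest tertile of R1, with a median of 4356.5 UMIs, 14.9% in the middle tertile and 28.1% in the deepest, with a median of 14144 UMIs. In R2 the same shares were 7.0%, 14.5% and 28.6%. After each cell had been thinned to 5000 UMIs, the shares were 6.23%, 9.99% and 12.6% in R1, and 9.70% and 10.6% in the middle and deepest tertiles of R2. Thinning kept only 289 of 872 cells of the shallowest tertile of R1 and 887 of 943 of the middle tertile of R2, so these shares cover other sets of cells. The mean level before thinning was 0.166, 0.258 and 0.308 UMIs per 10000 in R1 but 0.311, 0.328 and 0.282 in R2, so the level was larger in deeper cells in R1 and not in R2. Over thinned cells the variance of Cd59a was 1.31 times its mean in R1 and 1.55 times in R2, where counting alone gives a ratio of 1.

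**Figure D2:**
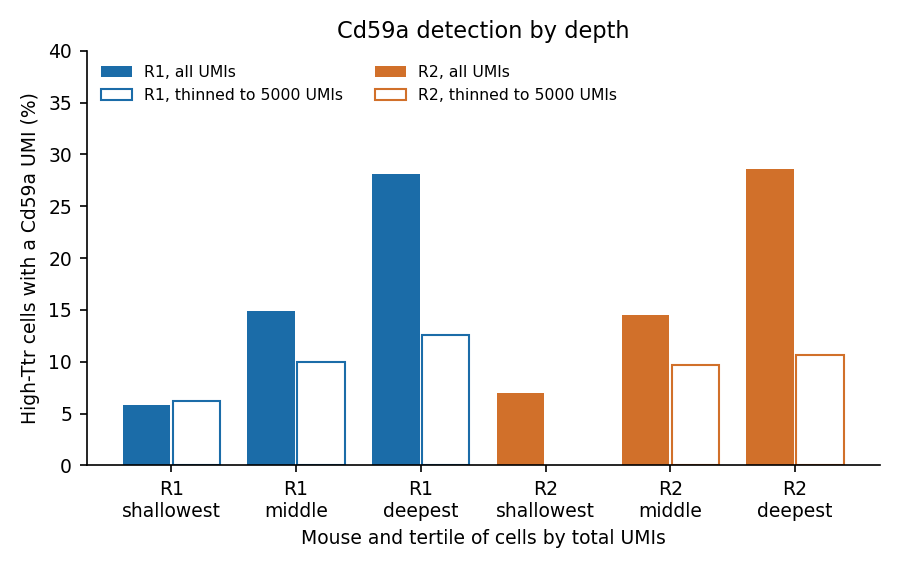
Share of high-Ttr cells with a Cd59a UMI in the shallowest, middle and deepest tertile of cells by total UMIs of each mouse, with all UMIs (filled bars) and after thinning each cell to 5000 UMIs (open bars). No cell of the shallowest tertile of R2 reached 5000 UMIs, so that bar is missing. The open bar of the shallowest tertile of R1 covers only 289 of 872 cells. With all UMIs the share climbs from 5.85% to 28.1% in R1 and from 7.0% to 28.6% in R2.

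Clu varied between high-Ttr cells by more than counting gives. After thinning to 5000 UMIs, the 2032 cells of R1 held 42.1 Clu UMIs on average and the 1830 cells of R2 held 40.2, with 583 and 999 shallower cells left out. The coefficient of variation was 30.8% in R1 and 28.8% in R2, against 15.4% and 15.8% for counting alone. From the 5th to the 95th percentile of cells, the Clu count spanned 23 to 65 in R1 (2.83 times) and 21.4 to 60 in R2 (2.80 times). Rgr, the RPE G protein-coupled receptor of the visual cycle, varied by 27.6% and 25.5%, against 10.0% and 9.38% for counting alone. Rpe65, the retinoid isomerase, varied by 40.9% and 38.9%, against 20.4% and 20.2%.

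In both mice, Clu was higher in cells with more visual cycle RNA. Its correlation with the summed level of Rpe65, Lrat, Rlbp1, Rgr, Rdh5, Rdh10 and Rrh was r = 0.406 over the 2032 thinned cells of R1 and r = 0.413 over the 1830 of R2. These and the following correlations are descriptions across cells, which share their library and a fixed total of 5000 UMIs, so that a gene that takes a larger part leaves less for the others. With the melanogenesis list (Dct, Tyrp1, Pmel and others) r was 0.110 and 0.027. With lists of stress and immune response, r was near 0, at -0.034 and 0.072 for immediate early genes, -0.005 and -0.022 for MHC class I and interferon genes, and -0.013 and -0.009 for NF-kB and acute phase genes. Clu was lower where the mitochondrial share of UMIs was high (r = -0.218 and -0.287) and, more weakly, where Ttr was high (r = -0.101 and -0.123). Depth before thinning gave r = 0.095 and 0.148. With Cd59a, the only other member with more than a few UMIs, r was -0.006 and -0.033, and for the 4 sparse members a correlation carries no information.

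**Figure D3:**
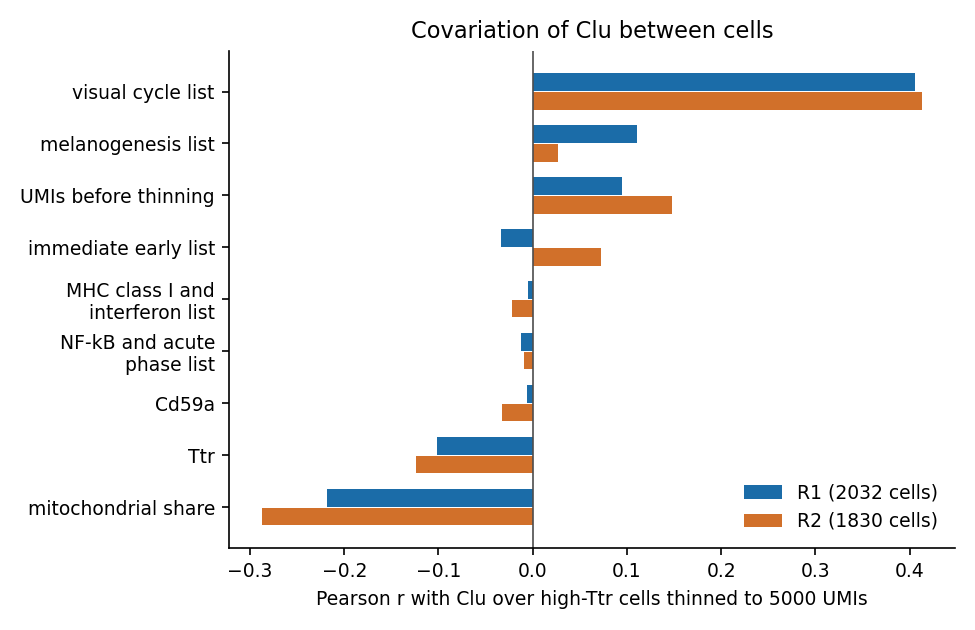
Pearson r between Clu and gene lists, Cd59a, Ttr, total UMIs or mitochondrial share over high-Ttr cells thinned to 5000 UMIs, in R1 (blue) and R2 (orange). The visual cycle list stands at 0.406 and 0.413 and the mitochondrial share at -0.218 and -0.287, while the stress and immune lists lie between -0.034 and 0.072.

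Of 1215 genes with at least 1 UMI per 10000 in both mice, those whose cell-to-cell pattern was most like that of Clu included Rgr (r = 0.318 in R1 and 0.330 in R2), Trf, the iron carrier transferrin (0.293 and 0.292), Ctsd, the lysosomal protease cathepsin D (0.295 and 0.277), and Rpe65 (0.319 and 0.276). The median r of these genes with Clu was -0.008 in R1 and 0.001 in R2, and 95% of them lay below 0.122 and 0.115. Rgr and Rpe65 are members of the visual cycle list. Among the most negative values were those of the mitochondrial transcripts mt-Nd1 (-0.229 and -0.260) and mt-Cytb (-0.246 and -0.246), and Malat1, a nuclear RNA, had -0.268 and -0.158.

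The change in low-Ttr cells was tested on UMIs summed per mouse over each class of cells, 4 sums in all, with edgeR's quasi-likelihood test and the mouse as a block. Of 11459 genes tested, 415 were higher in low-Ttr cells at an adjusted p under 0.05, a share of 3.62%, and 748 were lower, a share of 6.53%. Of the 9 members, 5 had enough UMIs to be tested, and these had passed a filter that a gene can pass through the class where it is high. Serping1 and C4b passed it only through the low-Ttr sums, and Cd46 only through the high-Ttr sums. Serping1 was higher, Clu was lower, and C4b, Cd59a and Cd46 did not pass the test. C3, Cfb, Cfi and Cd55 could not be tested. The scaling matters here, because the median log2 change of all genes was -0.40 with TMM scaling and 0.37 with library size alone, and the share of higher genes among those called moved from 35.7% to 73.1% (52.7% with DESeq2). Low-Ttr cells of a mouse are few, and fewer cells of a type and less RNA per cell cannot be told apart in such sums.

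Clu fell in low-Ttr cells but stayed in nearly all of them. It made up 8424 CPM in R1 and 8304 CPM in R2 in high-Ttr cells, against 4530 and 5275 in the low-Ttr cells. Per UMI this was 1.86 times lower in R1 and 1.57 times lower in R2. The log2 change was -1.56 ± 0.40 (SE, adjusted p = 0.00165), which is -1.15 relative to the median of all genes. With library size alone it was -0.76 (adjusted p = 0.00273), or -1.13 relative to that median. For comparison, the log2 change was -5.54 ± 0.46 for Rpe65 and -5.12 ± 0.53 for Rgr.

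Over single cells the levels of Clu overlapped between the classes. High-Ttr cells ran from 4.07 over a median of 80.1 to 258 UMIs per 10000 in R1 and from 8.35 over 82.3 to 187 in R2. Low-Ttr cells ran from 0 over 44.0 to 129 in R1, where 55 of 56 cells had a UMI, and from 7.24 over 54.8 to 138 in R2, where 18 of 18 did. If every Ttr UMI of the low-Ttr cells were carried over from high-Ttr cells, 102 of their 837 Clu UMIs would come with it in R1 and 23.0 of 465 in R2.

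**Figure D4:**
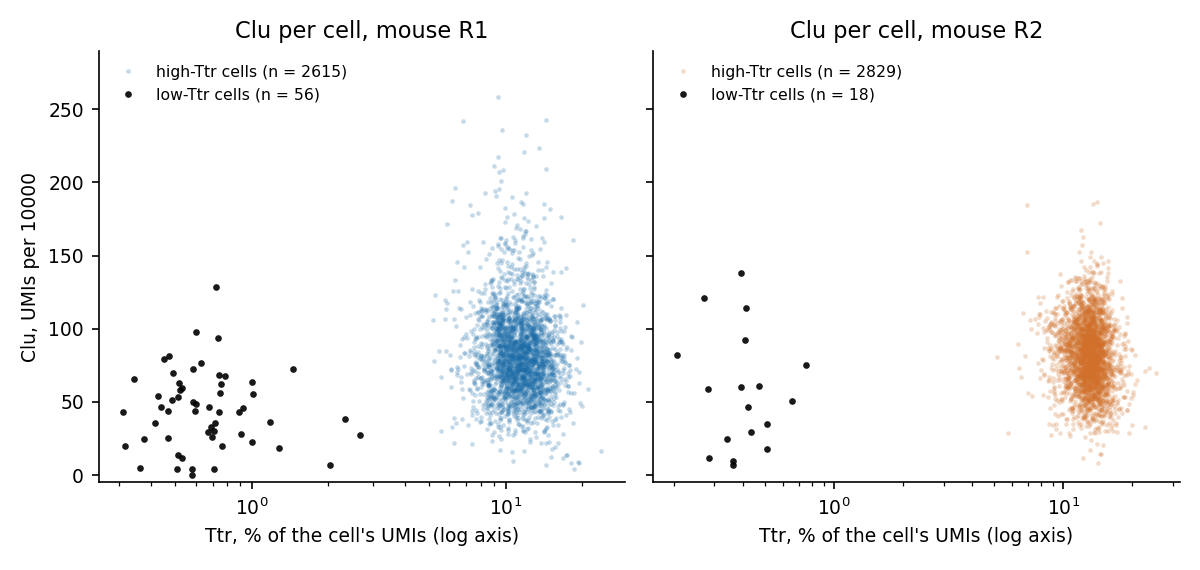
Clu (UMIs per 10000) against Ttr (percent of the UMIs of a cell, log axis) in each kept cell of R1 (left) and R2 (right), with high-Ttr cells coloured and low-Ttr cells black. Median Clu is 80.1 and 82.3 in high-Ttr cells and 44.0 and 54.8 in low-Ttr cells, and the ranges overlap.

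Within the low-Ttr cells, nearly all Clu UMIs were in cells with the Pax6/Dkk3 markers or marked by none of the 3 lists given above. Clu averaged 48.1 UMIs per 10000 in the 44 cells of R1 with the Pax6/Dkk3 markers and 62.7 in the 12 such cells of R2, and 47.0 and 66.8 in the 8 and 4 cells marked by none of the Pax6/Dkk3, microglia and fibroblast lists. The 2 cells with microglia markers held 3 Clu UMIs together, and those with fibroblast markers held 2 in R1 and 5 in R2. Without all cells that carried microglia or fibroblast markers in either class, an alternative chosen after seeing the data, the log2 change of Clu was -1.39 (adjusted p = 0.00624).

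Markers of Müller glia, the supporting glia of the neural retina, were also present in low-Ttr cells. At least 3 of 6 such markers were found in 2 of 56 low-Ttr cells of R1 and 4 of 18 of R2, most of which also carried the Pax6/Dkk3 markers, against 2 of 2615 and 4 of 2829 high-Ttr cells. The summed level of the 6 genes ran from 0 over a median of 16.6 to 83.0 UMIs per 10000 in low-Ttr cells of R1 and from 5.88 over 21.6 to 95.01 in R2, with medians of 11.6 and 11.4 in high-Ttr cells, and Sox2 and Kcnj10 were at 0 in low-Ttr cells. Most of this sum was Glul, which averaged 18.2 and 26.9 in low-Ttr cells and 11.7 and 11.2 in high-Ttr cells. Glul was found in 98.1% and 97.1% of high-Ttr cells, and Vim in 28.8% and 30.7%, so neither gene is particular to glia here. In low-Ttr cells, Slc1a3 was found in 1.79% and 16.7% of cells and Aqp4 in 1.79% and 5.56%. The low-Ttr cells with at least 3 of the 6 markers held 55 of 837 Clu UMIs in R1 and 149 of 465 in R2. Leaving them out of both classes, also an alternative chosen after seeing the data, gave a log2 change of -1.45 for Clu (adjusted p = 0.0125). For Serping1 it was 8.26 (adjusted p = 8.60e-22), but this refit kept the 2 low-Ttr cells of each mouse with fibroblast markers. Those cells held 21 of 21 low-Ttr Serping1 UMIs in R1 and 25 of 34 in R2, so the call is no independent support.

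Serping1 was higher in low-Ttr cells, and most of its UMIs were in few cells. Summed levels were 114 CPM in R1 and 386 in R2, against 0.288 and 0.760 in high-Ttr cells, and the log2 change was 8.01 ± 0.71 (SE, adjusted p = 8.59e-27). Serping1 entered this test only through the low-Ttr sums, so the call is not independent of the class where the gene is high. In R1 all 21 UMIs were in 2 of 56 cells, both with fibroblast markers. In R2, 25 of 34 UMIs were in the 2 cells with fibroblast markers, and the other 9 were in 4 cells with the Pax6/Dkk3 markers. Of these 9 UMIs, 8 were in 3 cells that carried Müller glia markers. All 6 fibroblast markers were found in low-Ttr cells of both mice, where their sum ran from 0 to 775 UMIs per 10000 in R1 and to 398 in R2. In high-Ttr cells the sum reached at most 3.44 and 169, with Lum and Pdgfra at 0 in R1 and Pdgfra at 0 in R2.

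Without the cells that carried microglia or fibroblast markers, Serping1 no longer had enough UMIs to be tested. It then had 0 UMIs in low-Ttr cells of R1 and 4 in high-Ttr cells. In R2 it had 9 and 18, which is 109 against 0.652 CPM, a ratio of 168 with a counting interval of 66.4 to 393. This ratio rests on few cells, as 8 of the 9 UMIs were in 3 low-Ttr cells with Müller glia markers. Among the 15 high-Ttr cells of R2 with a Serping1 UMI, 10 had at least 1 UMI of a fibroblast gene, compared with 68 of all 2829. Nearly all of these UMIs, 19 of 21, were in the shallowest tertile of cells. In R1, 0 of 5 such cells had a fibroblast UMI, and 3 of their 7 UMIs were in a cell with microglia markers.

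**Figure D5:**
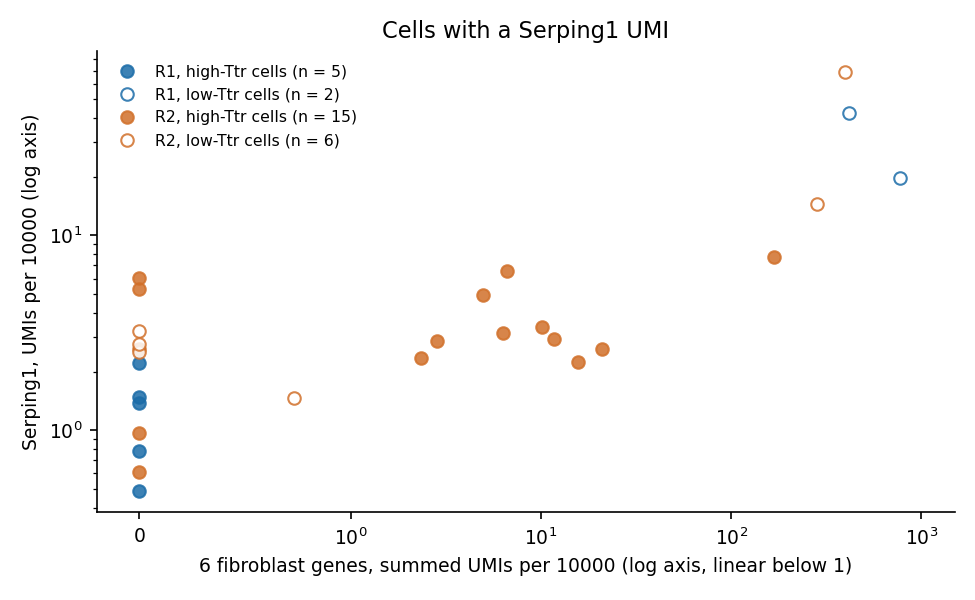
Serping1 (UMIs per 10000, log axis) against the summed level of 6 fibroblast genes (UMIs per 10000, log axis that is linear below 1) in every kept cell with a Serping1 UMI, with low-Ttr cells open and high-Ttr cells filled. The 4 low-Ttr cells with fibroblast markers lie at the upper right, with fibroblast sums from 282 to 775 and Serping1 from 14.5 to 69.0, and the other cells have Serping1 below 8.

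No change of Cd59a passed the test. It had 8 UMIs in 6 of 56 low-Ttr cells of R1 and 5 UMIs in 3 of 18 of R2, or 43.3 and 56.7 CPM against 27.5 and 29.2 in high-Ttr cells. The ratio of low-Ttr to high-Ttr cells was 1.58 in R1 (counting interval 0.678 to 3.13) and 1.94 in R2 (0.629 to 4.55), and the log2 change was 0.02 ± 0.69 (SE, adjusted p = 0.992). Relative to the median of all genes the log2 change was 0.43. With library size alone it was 0.80 (adjusted p = 0.624). A change of these sizes was not detectable at this depth. Of the 13 UMIs, 12 were in cells with the Pax6/Dkk3 markers and none in cells with microglia or fibroblast markers. Cells with Müller glia markers held 3 of 8 UMIs in R1 and 4 of 5 in R2, and without these cells the log2 change was -0.83 (adjusted p = 0.833).

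The other members left few UMIs in low-Ttr cells. C4b had 1 UMI in R1, in a cell with microglia markers, and 5 UMIs in 2 cells of R2 with the Pax6/Dkk3 markers. Its log2 change was 5.09 ± 1.87 (SE, adjusted p = 0.0611), with 7.34 in R2 alone and 2.34 in R1 alone, so the value rests on R2. Of the 5 UMIs of R2, 4 were in 1 cell, and the other was in a cell with Müller glia markers. Without cells that carried Müller glia markers the log2 change of C4b was 5.24 (adjusted p = 0.0498). That value rests on 1 low-Ttr cell of R2 and on the 1 UMI of R1. C3 had 1 UMI in R2, Cd55 had 1 UMI in R1 in a cell with fibroblast markers, and Cfb had none. Cd46 and Cfi were at 0 in low-Ttr cells, where the limit of 3 UMIs is 16.2 CPM in R1 and 34 in R2, far above their level in high-Ttr cells, so that no difference could be detected.

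The rest of the complement pathway was also low in high-Ttr cells, although several of its genes lay above the sparse members. Of 44 further genes, 42 were listed, 17 of them had 0 UMIs in high-Ttr cells of both mice, and none reached a mean of 1 UMI per 10000. Only 11 had at least 20 UMIs in each mouse. In order of activation, these included C1ra (73 and 75 UMIs), a protease of the C1 complex, and C2 (100 and 39), the classical pathway convertase subunit that lies next to Cfb. They also included Cfp (61 and 38), properdin, and C8g (78 and 78), a subunit of the terminal complex. Among regulators, Vtn (vitronectin, which binds the terminal complex) had 764 and 798 UMIs, Cr1l (Crry, the rodent membrane regulator of C3 and C4 cleavage products) 337 and 393, and Cpn1 (carboxypeptidase N, which trims the anaphylatoxins) 123 and 86. None of the receptors reached 20 UMIs in either mouse.

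Of these 42 genes, 14 could be tested between low-Ttr and high-Ttr cells, 3 were higher and 1 was lower, while 10 did not pass. The same filter applied here, and Vtn, Cfp and Cpn1 passed it only through the high-Ttr sums. Of all genes tested 3.62% were higher and 6.53% lower, so that 1 lower gene of 14 is near the background. The 3 higher genes were C1qa, C1qb and C1qc, the subunits of C1q, which macrophages and microglia make. Their log2 changes were 5.37 ± 0.94 (adjusted p = 4.34e-07), 4.93 ± 1.05 (adjusted p = 6.25e-05) and 4.79 ± 1.09 (adjusted p = 0.000257). In low-Ttr cells, all 49, 36 and 33 UMIs were in 2 cells of R1 with microglia markers, and R2 had none. High-Ttr cells of R1 held 85, 96 and 94 UMIs, of which 77, 79 and 87 were in 2 cells with microglia markers. High-Ttr cells of R2 held 3, 0 and 1. Of 8 microglia markers, 7 were found in low-Ttr cells of R1, where their sum ran from 0 to 118 UMIs per 10000 and P2ry12 was at 0, and none was found in those of R2. Without cells that carried such markers, the C1q genes could no longer be tested.

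Vtn was the pathway gene that was called lower, and it had entered the test only through the class where it is high. High-Ttr cells held 31.5 CPM in R1 and 28.9 CPM in R2, and there were 0 UMIs in low-Ttr cells of both mice (adjusted p = 0.00418). Against the limit of 3 UMIs this was at least 1.94-fold lower in R1, whereas in R2 the limit lay above the level in high-Ttr cells. Cr1l had 13.9 and 14.2 CPM in high-Ttr cells and 75.8 and 68.1 in low-Ttr cells, and its log2 change of 1.60 ± 0.72 did not pass (adjusted p = 0.167).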

How the data were processed

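The authors processed the 10x Genomics libraries with bcl2fastq 2.20.0.422 and Cell Ranger 1.2.0 against GRCm38 (submitters' processing notes) and deposited raw UMI counts per gene and cell for each mouse. The labels and the paper name different chemistry versions. From these counts, cells with at least 500 genes and at most 5% mitochondrial UMIs were kept, and the 4% with the highest artificial-doublet score were removed (25% artificial doublets, 1% neighbours, 10 components, 2000 variable genes). R1 held 26034378 and R2 29732969 UMIs. Cells are not replicates: UMIs were summed per mouse over 2 classes of cells and tested with edgeR 4.0.16 (R 4.3.3, TMM, filterByExpr, Benjamini-Hochberg over all genes tested, false discovery rate 0.05). The sums pair by animal through the design, and the mouse was kept as a block although same-mouse deviations were hardly correlated (r = 0.067). DESeq2 1.42.0 was an alternative. The fit was tested on simulated data with the same dispersion for all genes and no mouse effect. That does not cover genes whose UMIs lie in few cells. Correlations used ln(UMIs + 1) after thinning to 5000 UMIs. Named genes were all members, complement genes with 20 UMIs in a class or enough for the test, and the 5 genes most like Clu. Results of some genes that this rule names are not reported here. Members and lists were chosen with earlier results of these data known. Gene positions are from GENCODE M21.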

Additional observations from a re-analysis of the deposited data

Results flagged for a closer look

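Members were also present in the 173 cells of R1 and 147 of R2 that the filters on genes, mitochondrial UMIs and doublets left out of the sums compared above, and these values were singled out because they exceed the 3 UMIs that a count of 0 allows. Clu had 12058 UMIs there in R1 (171 of 173 cells, mean 69.3 UMIs per 10000) and 15845 in R2 (147 of 147 cells, mean 75.8). Cd59a had 52 UMIs in R1 and 64 in R2, with means of 0.371 and 0.280 UMIs per 10000. Serping1 had 7 UMIs in 2 cells of R1, of which 6 were in 1 cell, and 0 in R2. Cd46 had 4 UMIs in 2 cells of R2. Some of these cells entered the refits without doublet removal (59 low-Ttr and 2723 high-Ttr cells in R1, 19 and 2947 in R2) and with up to 10% mitochondrial UMIs (64 and 2660, 21 and 2850).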

How the results depend on the processing

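Clu remained lower in low-Ttr cells at an adjusted p between 1.73e-06 and 0.0168 in all 13 refits, and its log2 change was smallest, at -0.76, with library size alone. Cd59a passed in none (adjusted p from 0.624 to 0.994). With R2 or R1 alone, which allow no test, Clu changed by -1.49 to -1.54 and Cd59a by 0.073 and 0.065. Serping1 passed in all 11 refits that kept enough UMIs for it, and could not be tested without low-Ttr cells that carried other markers. These 11 refits all kept the low-Ttr cells with fibroblast markers, which held most of its UMIs. The gene entered the main test only through the low-Ttr sums, so the refits are not independent checks. C4b passed in 6 of 11, with adjusted p from 0.000408 to 0.19. It too entered the main test only through the low-Ttr sums, which held 1 UMI in R1 and 5 in R2, 4 of these in 1 cell. A pass of C4b in a refit is therefore no independent support. Without the replicate block, 860 genes were higher and 1290 lower, and no call of Clu, Serping1, Cd59a or Cd46 changed, whereas C4b then passed (adjusted p = 0.000408). With library size alone 982 were higher and 362 lower, and with DESeq2 413 were lower. The level of Clu in high-Ttr cells, 82.9 UMIs per 10000 as the mean of both mice, was 94.4 with Ttr out of the totals, 81.2 as a median over cells and 83.6 from pooled UMIs. Its correlation with the visual cycle list, 0.409 on average, was 0.454 without thinning, 0.378 at 2500 UMIs and 0.372 as Spearman's rho. With 56 and 18 low-Ttr cells, genes at the level of Cd46 or Cfi cannot be compared between the classes.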
